A study of Danio rerio with 4 samples.

Results

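A set of 8 transcription factor genes that mark the non-neural ectoderm, the cells that form epidermis, placodes and part of the neural crest, were followed in the RNA-seq table of wild-type and MZ*eomesa* zebrafish embryos. They are *tfap2a*, *tfap2c*, *foxi1*, *gata2a*, *gata3*, *tp63*, *dlx3b* and *dlx5a*, and their rows were found by gene name, though the set was drawn up with earlier results of these data known. Each name matched 1 row, so that 8 of the 32468 listed genes are described here. The samples were whole embryos at sphere stage, a blastula stage shortly after the zygotic genome becomes active, with 2 samples of the AB wild-type and 2 samples of the *eomesa* mutant allele fh105, for which the labels also give the AB strain. MZ*eomesa* embryos lack the maternal and the zygotic product of *eomesa*, which encodes a T-box transcription factor. According to the study's methods such embryos came from homozygous mutant parents by *in vitro* fertilisation, while embryos of mutant mothers alone were used in their place in some experiments that are not named. The number of embryos in a sample is not given in the sources used here.

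In the vertebrate gastrula, BMP signalling is high in the future epidermis and low in the future neural plate. Tfap2, Foxi1 and Gata2/3 factors act together in this BMP-dependent ectoderm and give it the competence to form placodes and neural crest. Tp63 maintains the basal layer of the epidermis, and Dlx factors act at the border between the neural plate and the epidermis.

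Expression was deposited as 1 FPKM value per gene and group, a fragment count scaled to transcript length and sequencing depth. The values carry a group label alone and are taken here to combine both samples of the group. They therefore give no spread between samples, and no test of these differences was made. Depth is unknown, so that no interval or detection limit can be given. A gene was counted as higher or lower when its FPKM in MZ*eomesa* embryos, called mutants from here on, was at least 2-fold above or below the wild-type value, and when it had at least 1 FPKM in at least 1 group and a value above 0 in both. This minimum was met by 15345 genes, whose median log2 ratio of mutant to wild-type expression was -0.01, and whose 5th and 95th percentiles were -0.94 and 1.13. *eomesa* itself (chromosome 19) had 62.6 FPKM in the wild type and 1.52 FPKM in mutants, in the direction given by the labels. In whole embryos, fewer cells of a type and less RNA per cell cannot be told apart, which holds for every gene below.

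Of the 8 genes, 6 passed the minimum and 2, *dlx3b* and *dlx5a*, stayed under 1 FPKM in both groups. All 6 had a ratio above 1, as did 49.2% of all genes that passed. The values of the 2 *dlx* genes are too low for a direction to be read. *tp63* was over 1 FPKM in mutants alone. At least 2-fold higher in mutants were 2 of the 6, *tfap2a* and *foxi1*, against 6.16% of all genes that passed. None of the 6 was at least 2-fold lower, against 4.44% of all genes. At a threshold of 1.5-fold *tfap2c* joined them, which made 3 of 6 against 13.2% of all genes. Ratios of abundant genes were less spread, and for the 7544 genes whose mean reached 10 FPKM, the share that was at least 2-fold higher was 2.56%. Of the set, *tfap2a*, *foxi1*, *gata2a* and *gata3* reached this mean, and the first 2 of them were at least 2-fold higher. Summed over the 8 genes, expression was 113.5 FPKM in the wild type and 195.0 FPKM in mutants, a ratio of 1.72. *tfap2a* and *foxi1* made up 82.0% of the difference, and the other 6 genes together had 61.6 and 76.3 FPKM, a ratio of 1.24.

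**Figure D1:**
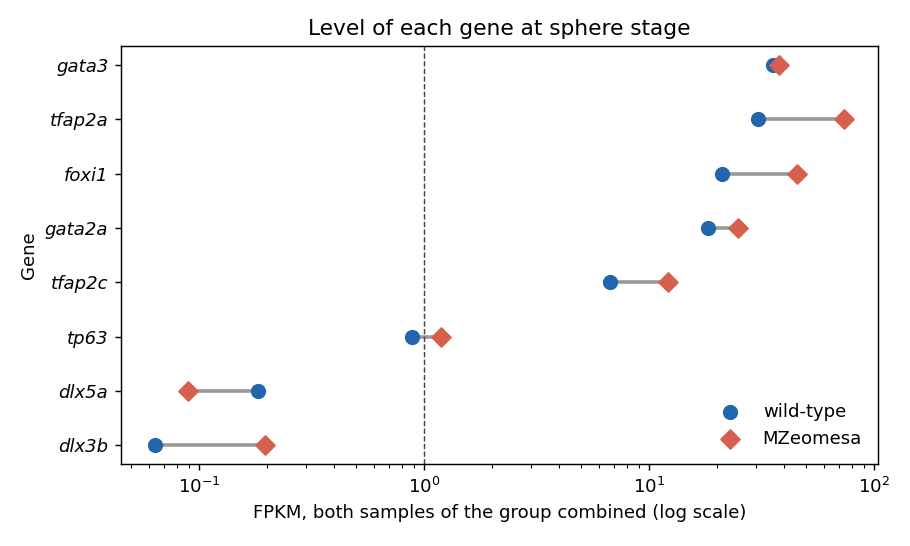
FPKM of each gene on a log scale, with wild-type as circles and MZ*eomesa* as diamonds. Each point is the value of a group, taken to combine both samples. The dashed line marks 1 FPKM. *tfap2a* and *foxi1* have the widest gaps among genes over that line, *gata3* is nearly level, and both *dlx* genes lie well under it.

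In the wild type 4 of the genes had at least 10 FPKM. *gata3* was the most abundant with 35.5 FPKM, followed by *tfap2a* with 30.6, *foxi1* with 21.2 and *gata2a* with 18.3 FPKM. *gata3* lay above 78.6% of the genes that passed the minimum and *gata2a* above 64.2%. *tfap2c* came next with 6.74 FPKM, then *tp63* with 0.889, *dlx5a* with 0.184 and *dlx3b* with 0.0641 FPKM. FPKM is scaled to transcript length, so levels can be set beside each other, but without a spread between samples it is not known which neighbours in this order differ. In mutants the order was *tfap2a* with 73.5, *foxi1* with 45.3, *gata3* with 37.8, *gata2a* with 24.9, *tfap2c* with 12.1, *tp63* with 1.20, *dlx3b* with 0.197 and *dlx5a* with 0.0897 FPKM. *gata3* thus went from the first to the third place, while *tfap2c* and *tp63* kept the fifth and sixth. The share of *tfap2a* in the summed FPKM of the 8 genes was 27.0% in the wild type and 37.7% in mutants. For *gata3* it was 31.3% and 19.4%.

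*tfap2a* (ENSDARG00000059279, chromosome 24, 8521273 to 8532116 in the deposited table, which is on Zv9) encodes an AP-2 factor needed for neural crest and epidermal development. Its expression was 30.6 FPKM in the wild type and 73.5 FPKM in mutants, 2.40-fold higher, a log2 ratio of 1.26. Among all genes that passed the minimum 3.94% had a ratio at least as large. Among the 3272 other genes with a mean FPKM within 2-fold of its own the share was 1.01%, the lowest for any of the 8 genes.

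*tfap2c* (ENSDARG00000040606, chromosome 6, 56113381 to 56151237) is its paralogue, with which it overlaps in function in the ectoderm. It had 6.74 FPKM in the wild type and 12.1 FPKM in mutants, 1.80-fold higher, a log2 ratio of 0.85, which lies under the 2-fold threshold. Of the 4897 other genes of similar level, 6.25% had a ratio at least as large. In the wild type the FPKM of *tfap2a* was 4.55 times that of *tfap2c*, and in mutants 6.06 times.

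The family has 3 further genes in the table, and all were under 1 FPKM in both groups. *tfap2b* had 0.315 and 0.454 FPKM in the wild type and in mutants, *tfap2d* 0.602 and 0.863, and *tfap2e* 0.129 and 0.193. The 2 *tfap2* genes over the minimum, *tfap2a* and *tfap2c*, had ratios of 2.40 and 1.80, where 49.2% of all genes over the minimum had a ratio above 1. The values of the 3 further genes are too low for their direction to be read, singly or together. Summed FPKM of the family was 38.4 in the wild type and 87.1 in mutants.

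*foxi1* (ENSDARG00000019659, chromosome 16, 2302273 to 2304041) encodes a forkhead factor required for the otic placode. It had 21.2 FPKM in the wild type and 45.3 FPKM in mutants, 2.13-fold higher, a log2 ratio of 1.09. A ratio at least as large was found for 5.29% of all genes that passed the minimum and for 1.94% of the 4068 other genes of similar level. Its paralogues were under 1 FPKM in both groups. *foxi2* had 0.0082 and 0.0124 FPKM, *foxi3a* had 0.0065 and 0.0049, and *foxi3b*, which marks skin ionocyte precursors later in development, had 0.0895 and 0.333. *foxi1* thus carried nearly all of the summed FPKM of the Foxi family, 21.3 in the wild type and 45.6 in mutants.

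*gata2a* and *gata3* encode zinc finger factors of the ectoderm that also act in blood cells and, for *gata3*, in the inner ear. *gata2a* (ENSDARG00000059327, chromosome 11, 3909991 to 3922643) had 18.3 FPKM in the wild type and 24.9 FPKM in mutants, 1.36-fold higher, a log2 ratio of 0.45. *gata3* (ENSDARG00000016526, chromosome 4, 24141642 to 24151643) had 35.5 and 37.8 FPKM, a ratio of 1.06 and a log2 ratio of 0.09. Ratios at least as large were found for 11.1% of the genes similar in level to *gata2a* and for 33.1% of those similar to *gata3*. Neither gene passed 1.5-fold. In the wild type *gata3* was 1.67 times as abundant as *foxi1*, and in mutants 0.834 times.

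Of the other Gata genes, *gata5*, which acts in endoderm and heart formation, passed the minimum and was 3.68-fold lower in mutants, at 2.05 and 0.557 FPKM. *gata2b* had 0.866 and 0.581 FPKM, *gata6* had 0.864 and 0.745, *gata1b* had 0.126 and 0.222, *gata1a* had 0.0257 and 0.0310, and *gata4* had 0.0498 and 0.0066. *gata5* was over 1 FPKM in the wild type alone, and with at least 1 FPKM in both groups or a pseudocount of 1 FPKM 0 Gata genes were lower.

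*tp63* (ENSDARG00000044356, chromosome 6, 28509575 to 28628021) encodes a transcription factor that is a target of BMP signalling in the zebrafish ectoderm. It had 0.889 FPKM in the wild type and 1.20 FPKM in mutants, a ratio of 1.35 and a log2 ratio of 0.43, so that it passed the minimum by its mutant value alone. Of the 3669 other genes of similar level 33.1% had a ratio at least as large. The value is for the whole gene, whose span is 118 kb, and does not separate the isoforms with and without the amino-terminal transactivation domain. Its paralogue *tp73* had 0.0326 and 0.0718 FPKM.

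*dlx3b* and *dlx5a* encode homeodomain factors of the border of the neural plate, where they become expressed in the gastrula. *dlx3b* (ENSDARG00000014626, chromosome 12, 6074361 to 6077882) had 0.0641 FPKM in the wild type and 0.197 FPKM in mutants. *dlx5a* (ENSDARG00000042296, chromosome 19, 42442146 to 42444159) had 0.184 and 0.0897 FPKM. Their log2 ratios were 1.62 and -1.04, at values too low for a direction to be read. Of the 3474 other genes with a mean within 2-fold of that of *dlx3b*, 10.7% had a ratio at least as large, and 85.1% of the 3486 similar to *dlx5a* had a larger or equal one. *dlx5a* is on the chromosome of *eomesa*, at a distance of 41.6 Mb.

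Each gene lies beside a paralogue. *dlx4b*, 7.70 kb from *dlx3b*, had 0.157 and 0.136 FPKM. *dlx6a*, 3.17 kb from *dlx5a*, was the sole Dlx gene over the minimum, with 4.80 FPKM in the wild type and 2.37 FPKM in mutants, 2.02-fold lower. The pair *dlx5a* and *dlx6a* had ratios of 0.488 and 0.495, but *dlx5a* was under the minimum. Its log2 ratio was -0.58 with a pseudocount of 0.1 FPKM and -0.12 with 1 FPKM. *dlx1a* was listed at 0.894 FPKM in the wild type and 0.0887 FPKM in mutants, just under the minimum, while *dlx2a*, *dlx2b* and *dlx4a* lay between 0.0519 and 0.111 FPKM in both groups. In the Dlx family, then, 1 of 8 listed genes passed the minimum. The 2-fold call of *dlx6a* was lost with a pseudocount of 0.1 or 1 FPKM and after rescaling by the upper quartile, which left 0 Dlx genes lower.

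**Figure D2:**
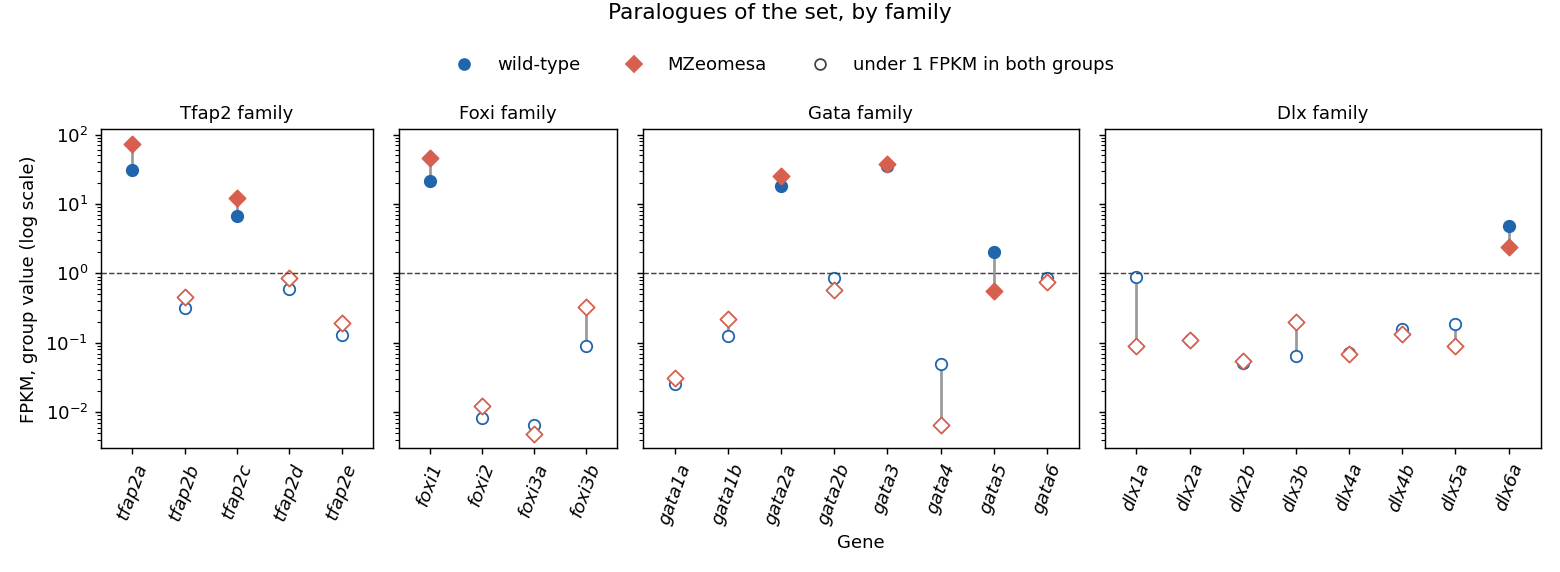
FPKM on a log scale for the listed genes of the Tfap2, Foxi, Gata and Dlx families, with wild-type as circles and MZ*eomesa* as diamonds, and open symbols for genes under 1 FPKM (dashed line) in both groups. In each family but Dlx the genes of the set are the most abundant ones. The open diamonds of all 3 further *tfap2* genes lie above their circles, at values too low for a direction to be read.

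Among other genes of similar level, 1.01% had a ratio at least as large as that of *tfap2a*. This share was 1.94% for *foxi1*, 6.25% for *tfap2c*, 11.1% for *gata2a* and 33.1% for *gata3* and for *tp63*.

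**Figure D3:**
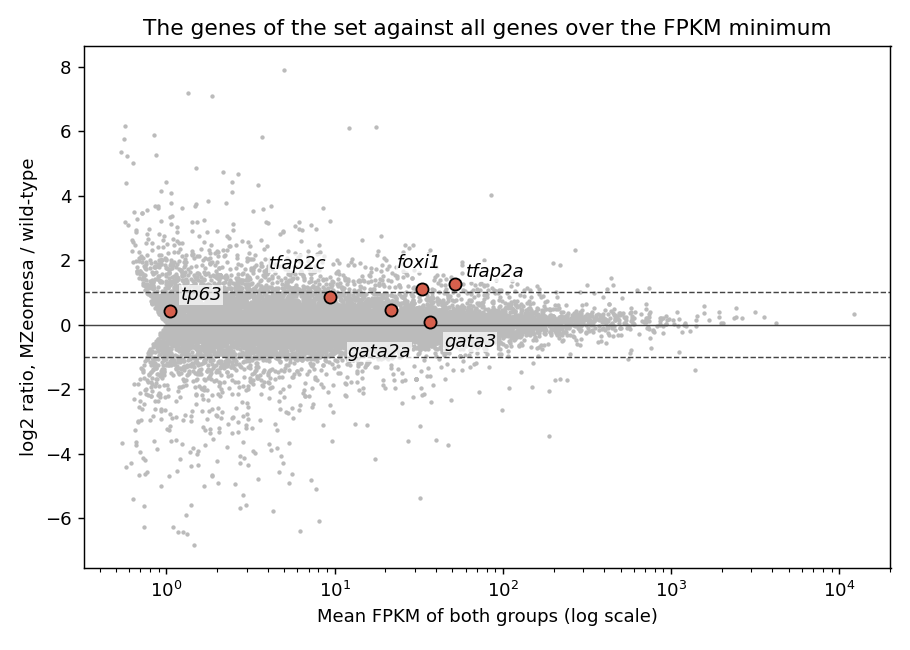
Log2 ratio of mutant to wild-type against mean FPKM (log scale) for the 15345 genes over the minimum, 1 grey point per gene, with the 6 genes of the set in red. Dashed lines mark 2-fold. *tfap2a* and *foxi1* lie above the upper line at log2 ratios of 1.26 and 1.09, and the cloud is wider at low FPKM.

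None of the 8 genes shares its listed span with another gene. The nearest gene over the minimum was taken on each side, which gave 16 neighbours with a median log2 ratio of -0.10. *slc35b3* and *tmem14c* on either side of *tfap2a* had log2 ratios of -0.34 and -0.12. *ASCC3*, 42.0 kb from *foxi1*, had 0.03. On its other side the nearest such gene, *cers2b*, is 876 kb away and was 2.06-fold higher, at 5.56 and 11.5 FPKM. *taf3* beside *gata3* had a log2 ratio of 0.01 and *rpn1* beside *gata2a* -0.18. *tprg1*, 5.46 kb from *tp63*, had 10.6 and 5.66 FPKM, a log2 ratio of -0.91 where that of *tp63* was 0.43. On the other side of *tp63*, the listed span of *tbc1d23* begins only 0.007 kb away. *tbc1d23* had 37.9 and 35.2 FPKM, far above *tp63*, and a log2 ratio of -0.10. Of the 16 neighbours, *cers2b* was at least 2-fold higher and *dlx6a* at least 2-fold lower, where 6.16% and 4.44% of all genes over the minimum were. *ZNFX1*, 1197 kb from *tfap2c*, had a ratio of 1.80, the same as that of *tfap2c*. Apart from *cers2b* and *ZNFX1*, the neighbours of *tfap2a*, *tfap2c*, *foxi1* and *gata2a* had log2 ratios from -0.34 to 0.20.

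Genes of the BMP pathway, which acts upstream of the set in the ectoderm, had ratios on both sides of 1. Of 16 listed genes among BMP ligands, antagonists and ventral targets, 14 passed the minimum, with 2 at least 2-fold higher, 2 at least 2-fold lower and a median log2 ratio of -0.07. With at least 1 FPKM in both groups, which leaves out *bmp4*, 1 was higher. The summed FPKM of the 16 genes was 744.4 in the wild type and 660.7 in mutants, of which *id1* alone had 315.2 and 226.5. The ligand genes *bmp2b* with 23.8 and 32.5 FPKM and *bmp7a* with 14.8 and 14.5 FPKM had ratios of 1.36 and 0.980. *bmp4*, a ligand gene that is itself raised by BMP signalling, had 0.743 FPKM in the wild type and 4.02 FPKM in mutants, 5.42-fold higher. *szl*, a BMP-induced feedback regulator of Chordin breakdown, was 3.42-fold higher at 2.23 and 7.63 FPKM. *vent*, a ventral repressor, was 3.06-fold lower at 17.8 and 5.82 FPKM, and *id3*, a common BMP target, was 2.22-fold lower at 12.8 and 5.75 FPKM. *smad5*, which transduces BMP signals, had a ratio of 1.01.

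Larger values in mutants were also found for genes named for other tissues. The neural plate and border lists, like the set itself, are named for tissues of later stages. Whole embryos were measured, so the values do not place expression in any tissue. Among 15 neural plate factors over the minimum 6 were at least 2-fold higher and 1, *zic2a*, was lower, with a median log2 ratio of 0.55 beside 0.65 for the 6 genes of the set and -0.01 for all genes. When both groups had to reach 1 FPKM, which leaves out *otx2* and *rx3*, 4 were higher and the median was 0.51. That rule also leaves *tp63* out of the set, for which no such median was taken. Neural plate factors that were higher included *otx2* with 0.280 and 2.55 FPKM and *irx1b* with 3.01 and 9.56 FPKM. *rx3* had 7.55 times its wild-type value of 0.332 FPKM. *zic2a*, which shares its listed span with another gene, had 8.38 and 2.26 FPKM. *hesx1*, which acts in the anterior neural plate, had a listed value of 0 in the wild type against 5.24 FPKM in mutants. The summed FPKM of the neural plate list was 767.9 in the wild type and 978.7 in mutants. Of 6 factors of the neural plate border, placodes and neural crest over the minimum, *sp5l* was at least 2-fold higher, with 1.27 and 15.7 FPKM, and none was lower. The median log2 ratio was 0.45. *msxb*, a BMP-responsive gene of the border, had 0.931 and 1.61 FPKM. A further 13 genes of this list, among them *sox10* and *six1b*, were under the minimum, as *dlx3b* and *dlx5a* were.

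The enveloping layer, the outermost epithelium of the blastula, also expresses genes of epidermal type. Of 12 of its markers over the minimum 5 were at least 2-fold higher and 1 lower, with a median log2 ratio of 0.64. *cyt1* and *evpla* were over 1 FPKM in mutants alone, and with at least 1 FPKM in both groups 3 markers were higher and the median was 0.35. The keratin gene *krt5* had 7.50 and 25.2 FPKM and *krt92* had 6.18 and 29.9, while *cyt1* had 0.184 and 2.28 FPKM and shares its listed span with other genes. *evpla*, an envoplakin gene of the cell envelope, had 0.767 and 2.95 FPKM, and *klf2b* had 14.3 and 33.8. *grhl3*, a regulator of this layer, was 2.48-fold lower at 117.6 and 47.4 FPKM. *krt4* and *krt8*, abundant in the layer, had ratios of 1.46 and 1.66, and *cldne* had 1.11. The summed FPKM of the listed markers, without *krt18*, whose estimate failed, was 351.3 in the wild type and 422.8 in mutants, and none of them was listed at 0. The part of this layer, or of cells of the future neural plate, in the values of *tfap2a* and *foxi1* was not tested.

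Markers of the mesendoderm and margin had a median log2 ratio of -0.68 over 14 genes, of which 5 were at least 2-fold lower, 0 higher and 6 had a ratio above 1. This median turned on the minimum, being -0.0034 with 3 genes lower where at least 1 FPKM was asked for in both groups, and 0.54 with 2 genes lower at 5 FPKM in at least 1 group. *sox32* and *gata5* were over 1 FPKM in the wild type alone. The lowest ratios were those of *sox32*, *mxtx1*, *mxtx2* and *gata5*, and the summed FPKM of the list was 286.7 in the wild type and 270.5 in mutants. *foxa3* had the highest ratio of this list, 1.92, above the 1.80 of *tfap2c*. *ntla* and *tbx16*, T-box genes of the margin, had ratios of 1.75 and 1.45, and *lft1*, *gsc* and *flh* lay between them. All 6 of these ratios were above that of *gata2a*. At a threshold of 1.5-fold, 5 of the 14 genes were higher in mutants and 7 were lower. Transcripts that are switched on at about this stage were also compared. Of 11 early zygotic transcripts 9 had a ratio above 1 (*irx7* and *sox11a* are also in the neural plate list), with a median log2 ratio of 0.51, while 12 maternal transcripts had a median of -0.03. *foxd5* was 2.23-fold higher and *blf* 11.0-fold lower among the former, and *buc* was 2.29-fold lower among the latter. The early zygotic transcripts had log2 ratios from -3.46 for *blf* to 1.16 for *foxd5*. Their summed FPKM was 860.8 in the wild type and 685.3 in mutants, of which *blf* alone had 342.2 and 31.0. Log2 ratios of the 6 genes of the set over the minimum ran from 0.09 to 1.26. Whether embryos of the groups differed in age was not tested.

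**Figure D4:**
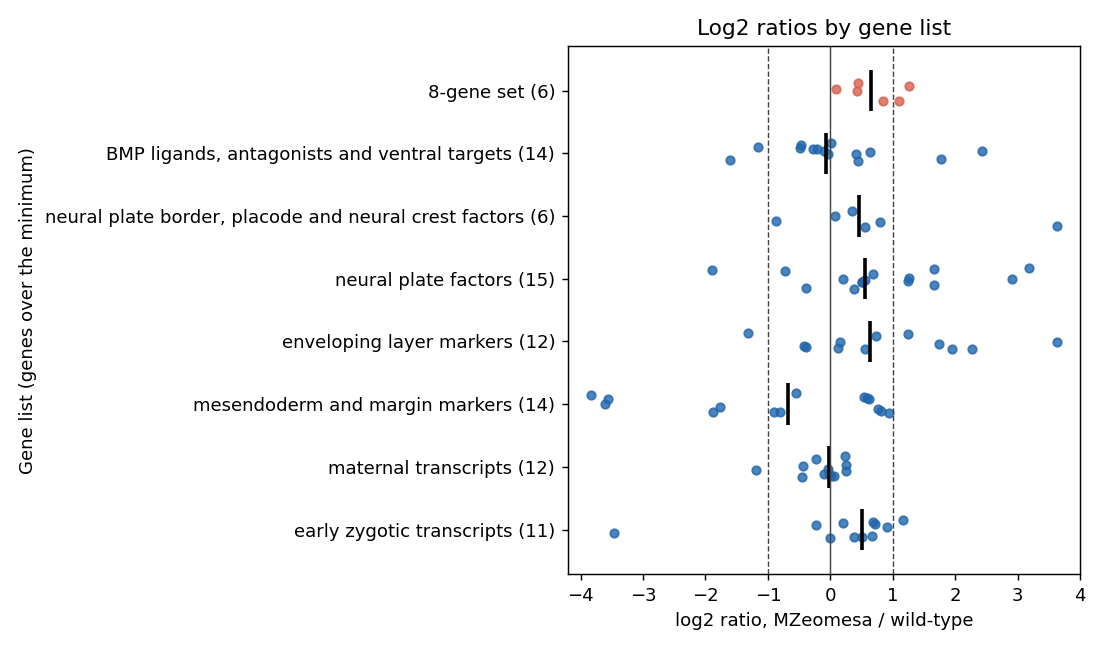
Log2 ratios of mutant to wild-type by gene list, 1 point per gene over the minimum (numbers of genes in brackets), with the median as a black bar and 2-fold as dashed lines. The 6 genes of the set lie between 0.09 and 1.26 with a median of 0.65, beside 0.55 for the neural plate list and -0.07 for the BMP list.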

How the data were processed

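Poly(A) RNA of whole sphere stage embryos was sequenced by the authors as single reads, with 2 samples per genotype. Per the study's methods and the submitters' processing notes, the reads of each sample were mapped with TopHat2 2.0.5 to Zv9, and expression was estimated and compared with Cufflinks, which divided multiply mapping reads among their loci. The authors deposited 1 FPKM value per gene and group, taken here to combine both samples. Gene-level values add up isoforms, and close paralogues can share reads. The table's columns of fold change, test statistic, p-value and q-value belong to the authors' comparison and were not used, so that calls rest on fold size alone. Coordinates are as listed there. The labels do not say whether the samples came from separate clutches, and depth is unknown.

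Log2 ratios of mutant over wild-type FPKM were taken without a pseudocount. Rows with a failed estimate (84) or too much data (1) were left out, as were genes at 0 in a group. A gene was counted at 2-fold with at least 1 FPKM in at least 1 group. Genes of similar level had a mean FPKM within 2-fold. The members, gene lists and rules were chosen with earlier results of these data known. Of the lists, the genes named were the families, neighbours past 2-fold, and up to 4 genes past 2-fold in each direction. Other genes (*bmp2b*, *bmp7a*, *smad5*, *id1*, *msxb*, *sox10*, *six1b*, *hesx1*, *krt4*, *krt8*, *krt18*, *cldne*, *klf2b*, *ntla*, *tbx16*, *foxa3*, *lft1*, *gsc*, *flh* and other neighbours) were chosen after their values were seen. Sequence features, and some genes of the lists, are not reported here. List names were matched in the table or through a table of older symbols. The counting was tested on simulated data with planted changes well past the 2-fold threshold, which checks the arithmetic and not the calls. Alternatives were pseudocounts of 0.1 and 1, 3 scalings, other folds and other minima. Python 3.11.15, numpy 2.4.6, pandas 2.3.3 and matplotlib 3.10.9 were used.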

Additional observations from a re-analysis of the deposited data

How the results depend on the processing

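The counts of 2 genes at least 2-fold higher and 0 lower held with pseudocounts of 0.1 and 1, after rescaling to a common sum, centring on the median ratio or rescaling by the upper quartile, and with at least 1 FPKM in both groups or at least 5 FPKM in at least 1 group. At a threshold of 3-fold 0 genes were higher, against 2.366% of all genes, and at 1.5-fold 3 were, against 13.2%. The share of all genes at least 2-fold higher, 6.16% with the main rules, changed where the member counts held. It was 3.995% with at least 1 FPKM in both groups and 4.019% with at least 5 FPKM in at least 1 group. With a pseudocount of 1 this share was lower than either. Without a minimum, 3 genes were higher, with *dlx3b* added, and 1 was lower, *dlx5a*. The share of all genes at least 2-fold higher was then 12.4% and that lower 8.93%. Over all alternatives the log2 ratio ran from 1.19 to 1.30 for *tfap2a*, from 1.02 to 1.13 for *foxi1*, from 0.76 to 0.88 for *tfap2c*, from 0.38 to 0.48 for *gata2a*, from 0.02 to 0.12 for *gata3* and from 0.22 to 0.46 for *tp63*. With a pseudocount of 1 the ratios of *dlx3b* and *dlx5a* shrank to 0.17 and -0.12. Several list counts and medians, that of the mesendoderm and margin markers among them, changed with the minimum. Only some of these changes are given beside the lists.

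No paired analysis was possible because the table gives 1 value per group, and for the same reason no sample was left out. All ratios rest on 1 value per group, so that the spread between samples is unknown for every gene named.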
